A study of Mus musculus with 2 samples.

Results

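The genes described here are 7 keratins of the epidermis, taken by symbol from the 19465 genes counted in each section: Krt5, Krt14 and Krt15, which mark the basal layer, and Krt1, Krt10, Krt2 and Krt77, which mark the layers above it. All 7 symbols were found, each in 1 row. The data are spatial transcriptomes of 2 skin sections, 1 from an S1pr2 fl/fl mouse (control below) and 1 from an S1pr2 fl/fl K14-Cre mouse (Cre below). Both mice carried the floxed S1pr2 alleles and were 8 weeks old, and both received 62.5 mg of 5% imiquimod (IMQ) cream on depilated back skin for 7 days. In the second mouse the Cre recombinase is driven by a keratin 14 promoter, so that S1pr2, a receptor for sphingosine 1-phosphate, is deleted in keratinocytes. IMQ activates Toll-like receptor 7 and gives a psoriasis-like inflammation. Each genotype had 1 section and no section of untreated skin was analysed here. No test between genotypes was therefore possible, a difference between sections cannot be told apart from a difference between the animals or the cuts, and all intervals below (95%) cover counting error only.

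Keratins are the intermediate filament proteins of epithelial cells, and each filament pairs a type I with a type II keratin. Dividing basal keratinocytes hold the pair of Krt5 (type II) and Krt14 (type I). A keratinocyte that leaves the basal layer turns to Krt1 (type II) and Krt10 (type I), while inflamed or wounded epidermis adds the stress keratins Krt6a, Krt6b, Krt16 and Krt17. The ratio of basal to suprabasal keratin transcripts is therefore a familiar readout of epidermal differentiation.

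The type II members lie together on mouse chromosome 15 (build GRCm38): Krt5 (ENSMUSG00000061527) at chr15:101707069-101712905, Krt2 (ENSMUSG00000064201) at chr15:101810689-101818956, Krt1 (ENSMUSG00000046834) at chr15:101845426-101850786 and Krt77 (ENSMUSG00000067594) at chr15:101858731-101869706. The type I members lie on chromosome 11, Krt10 (ENSMUSG00000019761) at chr11:99385254-99397449, Krt15 (ENSMUSG00000054146) at chr11:100131759-100135949 and Krt14 (ENSMUSG00000045545) at chr11:100203162-100207510. The RefSeq promoter table (GRCm38.p6, 250 bases before to 50 after a transcript start) held 5 of the members. Krt1 and Krt15 had no entry. The promoters of 1 basal and 1 suprabasal keratin are shown because these genes represent the sides of the ratio described below, with the TATA-like motif in capitals and the rest in lower case, 5′ to 3′.
Krt5 promoter, chr15:101712856-101713155, minus strand: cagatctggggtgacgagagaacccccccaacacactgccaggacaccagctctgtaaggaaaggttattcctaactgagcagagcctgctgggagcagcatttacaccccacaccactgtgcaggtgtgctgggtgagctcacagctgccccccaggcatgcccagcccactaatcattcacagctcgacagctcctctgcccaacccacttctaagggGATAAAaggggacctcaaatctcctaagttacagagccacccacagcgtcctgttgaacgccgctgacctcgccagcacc
Krt10 promoter, chr11:99389315-99389614, minus strand: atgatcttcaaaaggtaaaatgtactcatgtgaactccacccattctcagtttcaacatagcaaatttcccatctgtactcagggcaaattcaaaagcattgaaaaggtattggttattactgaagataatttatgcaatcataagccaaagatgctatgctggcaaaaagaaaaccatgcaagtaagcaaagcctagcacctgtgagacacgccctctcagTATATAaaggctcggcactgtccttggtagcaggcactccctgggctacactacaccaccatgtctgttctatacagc
The TATA box letters TATAAA, the variant TATATA and the further variant GATAAA were searched on the gene's own strand from 40 to 15 bases before the transcript start, a window and a choice of letters made after the sequences had been seen. A motif starts 30 bases before the start in Krt5 (GATAAA) and 28 bases before it in Krt10 (TATATA). Krt2 and Krt77 hold TATATA at the like place, 29 and 30 bases before the start, so that 4 of the 5 members with an entry had a motif, against 3.27% of the 32851 promoters listed. The printed Krt10 window belongs to a transcript start that lies 8085 bases inside the longest annotated span of the gene. The windows of Krt14 and Krt2 lie 1480 and 787 bases inside their spans, and the window of Krt14 held no motif.

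The tissue was covered by spots, each of which holds several cells, and a probe-based assay counted unique molecular identifiers (UMIs, the tags of single captured molecules). A connected group of 1203 spots with 5291783 UMIs made up the control section and a group of 970 spots with 2845041 UMIs the Cre section. Depth was counted in steps of the hexagonal grid from the upper edge, where 25 epidermal markers other than keratins summed to 79443 CPM in the control section and 36987 in the Cre section, against 17713 and 1913 at the lower edge. Steps 0 and 1 are called surface (194 and 191 spots, 859320 and 496553 UMIs), steps 2 to 4 middle, and step 5 and beyond deep (650 and 443 spots, 2478051 and 1352082 UMIs). Levels are given as CPM, the UMIs of a gene per 1000000 UMIs of the same spots. The number of probes per gene is not given in the sources used here, so that levels are compared between sections and depths and not between genes. Close relatives such as Krt6a, Krt16 and Krt17 could share probe matches with Krt5 and Krt14, which makes small differences in those genes uncertain. S1pr2 itself had 154 UMIs in the control section (29.1 CPM, 24.7 to 34.1) and 54 in the Cre section (19.0 CPM, 14.3 to 24.8). At the surface it had 8 UMIs (9.31 CPM, 4.02 to 18.3) and 5 UMIs (10.1 CPM, 3.27 to 23.5), too few to check the deletion in the epidermis, and where its probes lie relative to the deleted part is not given.

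At the surface, each basal keratin was within 2-fold between the sections, while suprabasal keratins were several times lower in the Cre section. This nearness of the basal keratins holds for the surface steps only. In the middle spots Krt14 was at 18901 CPM in the control section and 6565 in the Cre section, and Krt5 at 4391 and 1812. The surface held 20.6% of the Krt5 UMIs of the control section and 51.4% of those of the Cre section. Krt14 reached 32388 CPM in the control surface (32009 to 32771) and 25623 in the Cre surface (25179 to 26072), a log2 ratio of Cre over control of −0.34 (−0.37 to −0.31). Krt5, its type II partner, was at 3881 (3750 to 4015) and 4618 (4431 to 4811), a log2 ratio of 0.25 (0.17 to 0.33). These partners thus lay on opposite sides of equality, and neither direction was stable. In spots that hold several cells, fewer cells of a type and less RNA per cell cannot be told apart. The TMM factor of edgeR, which allows for a difference in composition, lowers the log2 ratio of every gene at the surface by the same amount (a shift of −0.80) and leaves the order of the genes as it is. With it the log2 ratio of Krt5 was −0.55, and relative to the other epidermal markers that of Krt14 was 0.73. Most UMIs of these markers come from Krtdap and Flg of the upper layers and from Lgals7, which is not confined to them. Krt15, a type I keratin of basal cells that is best known from the hair follicle bulge, was rare at the surface, with 58 UMIs (67.5 CPM, 51.3 to 87.3) and 46 UMIs (92.6 CPM, 67.8 to 124). The interval of its log2 ratio, 0.46, ran from −0.13 to 1.04. The basal keratins summed to 36337 and 30333 CPM, 1.20-fold higher in the control surface (1.17 to 1.22), and relative to the other epidermal markers the log2 ratio of this sum was 0.81 in place of −0.26. The median surface spot had Krt14 at 32420.0 and 21661 CPM and Krt5 at 2409 and 3777 CPM.

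Suprabasal keratins differed far more. Krt1, the type II keratin of the spinous layer, was at 12418 CPM in the control surface (12183 to 12656) and at 2352 in the Cre surface (2219 to 2491), 5.28-fold higher in the control section (4.97 to 5.61). Krt10, its type I partner, was at 20885 (20581 to 21193) and 3649 (3483 to 3821), 5.72-fold higher (5.45 to 6.01). The suprabasal sum was 5.54-fold higher in the control surface (5.33 to 5.75), a log2 ratio of −2.47, and kept its direction under every scaling and definition of the surface that was run, from −3.27 with the TMM factor to −1.40 relative to the other epidermal markers. In single spots Krt10 was detected in 186 of the 194 control surface spots and in 132 of the 191 Cre surface spots, and the median spot was at 14812 and 1107 CPM.

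Of the 5 members with at least 100 UMIs over both surfaces, 2 (Krt1 and Krt10) were at least 2-fold lower in the Cre section and none was at least 2-fold higher. Over all 2345 genes with as many UMIs, 17.4% were at least 2-fold lower and 15.5% at least 2-fold higher, with a median log2 ratio of −0.02. Krt2, a keratin of the upper spinous and granular layers, had 1 and 6 UMIs at the surface, and Krt77, a type II keratin related to Krt1, had 4 and 1. Over the whole sections Krt2 had 24 and 29 UMIs and Krt77 had 58 and 17. The 1226 genes of olfactory, vomeronasal, bitter taste and trace amine receptors, which skin is not known for, averaged 11.7 and 17.0 UMIs per gene over the same spots, and 39 and 131 of them had more UMIs than Krt2. For Krt77, 3 and 518 receptor genes had more. Krt77 in the Cre section lay near the mean of these genes and Krt2 above it, both at too few UMIs for a profile over depth, and both genes are left out of what follows except in the sums.

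**Figure D1:**
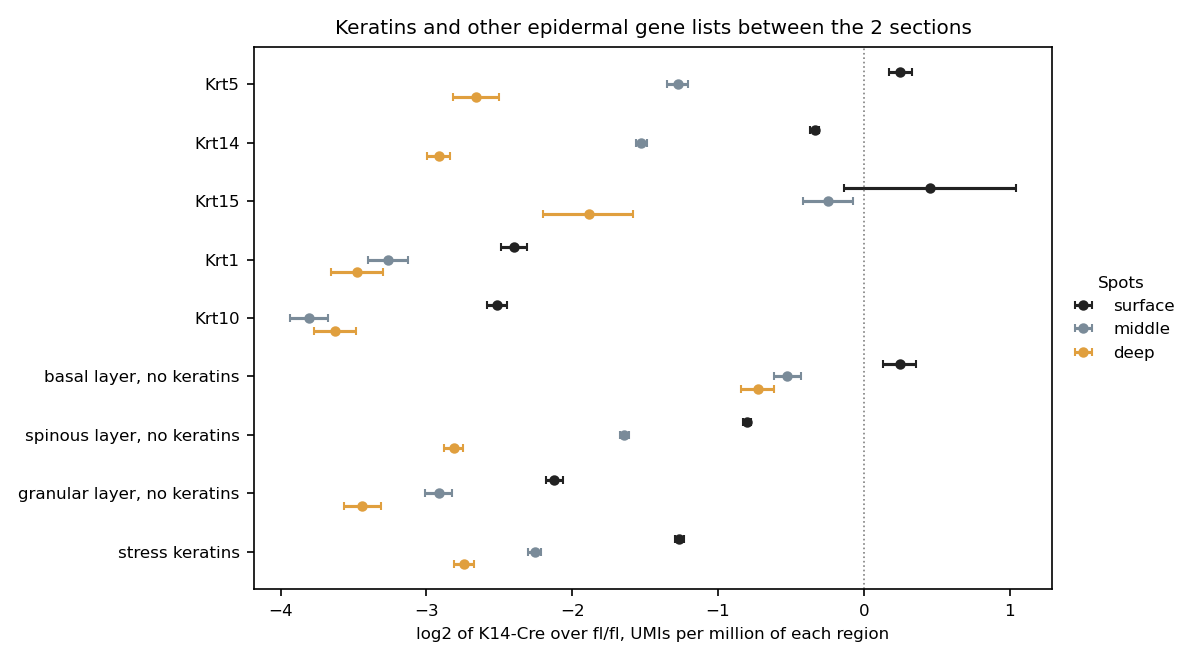
Log2 ratio of the Cre section over the control section (x axis, CPM of each region) for 5 keratins and 4 lists of other epidermal genes (y axis), with 1 point for surface, middle and deep spots and 95% intervals of counting error from 1 section per genotype (control S1pr2 fl/fl and Cre S1pr2 fl/fl K14-Cre). At the surface Krt5 and Krt14 lie at 0.25 and −0.34 while Krt1 and Krt10 lie at −2.40 and −2.52, and in deep spots all 5 keratins lie between −1.89 and −3.62.

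Other genes of the same layers, in lists that hold no keratin, also differed more between the sections the higher their layer. Basal-layer genes, many of which anchor the cell to the basement membrane, summed to 1827 CPM in the control surface and 2165 in the Cre surface. Of 9 genes with enough UMIs 2 were at least 2-fold higher in the Cre section and none lower, with a median log2 ratio of 0.25. Over all 2345 genes 15.5% were at least 2-fold higher and 17.4% lower, so that the 2 of 9 are not read as a result. These 2 were Itgb4, an integrin of the hemidesmosome (137 and 411), and Lama3, a laminin chain of the basement membrane (61.7 and 260), named for their ratio after the values were seen. Among the basal-layer genes with most UMIs, Col17a1, a hemidesmosome collagen, was at 399 and 217 and the integrin Itga6 at 256 and 338. Spinous-layer genes summed to 44314 and 25423, with 6 of 11 at least 2-fold lower in the Cre section. Krtdap, a secreted protein of differentiating keratinocytes, was at 19657 and 9040, whereas Lgals7, the galectin of stratified epithelia, was at 11947 and 11274. Granular-layer genes summed to 24849 and 5705, with 8 of 10 at least 2-fold lower. Flg, the precursor of filaggrin that bundles keratin filaments, was at 9624 and 542, and Lor, the main protein of the cornified envelope, at 4040 and 800.

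The stress keratins stood between the groups. They summed to 51165 CPM in the control surface and 21279 in the Cre surface, and 3 of 4 were at least 2-fold lower in the Cre section. Krt16 had log2 −1.60, Krt6b −1.27 and Krt6a −1.14, while Krt17 had −0.21. Of the 41 keratins in the files besides the 7 members, the stress keratins included, 8 had enough UMIs, of which 6 were at least 2-fold lower and none higher. The shares over all 2345 genes, to be read beside all counts in this paragraph, were 17.4% lower and 15.5% higher. Markers of other tissues also differed. The 9 dermal markers summed to 2368 CPM in the control surface and 6378 in the Cre surface (5 of 7 with enough UMIs at least 2-fold higher), and the 7 muscle markers to 582 and 2036 (5 of 5 higher), with no marker of either list at 0 UMIs in either surface. Follicle markers summed to 172 and 369, with 3 and 1 of 17 at 0 UMIs. The 8 immune markers summed to 34937 and 10331 (3 of 5 lower), most of it from S100a8 and S100a9, which keratinocytes of inflamed skin also express. Receptor genes summed to 1133 and 9928, and the median surface spot held 3082 and 2070.0 UMIs in all. The part of these differences in the keratin ratios was not tested.

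The ratio of basal to suprabasal keratin UMIs needs no scaling to the library. At the surface it was 1.09 in the control section (1.07 to 1.11), from 31225 basal and 28623 suprabasal UMIs. In the Cre section it was 5.04 (4.85 to 5.25), from 15062 and 2987 UMIs, which is 4.62-fold higher (4.43 to 4.82, Woolf interval). The surface held 35.5% of all keratin UMIs of the control section and 59.5% of those of the Cre section. Over the whole sections, without a depth cut, the ratio was 1.52 and 5.44, which is 3.59-fold higher in the Cre section (3.47 to 3.71). The absolute ratio depends on the probes and is not a ratio of molecules, so only its change between places is read. At the outermost spots alone (step 0) the ratio was 0.889 in the control section, so that suprabasal UMIs were in excess there, and 4.94 in the Cre section.

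Single spots spread widely around these sums. Among surface spots with at least 20 keratin UMIs, 63 of 179 in the control section held more suprabasal than basal UMIs (35.2%), and 13 of 164 in the Cre section (7.93%). The log2 ratio of a spot (0.5 added to both counts) had its median at 0.50 in the control section and ran from −1.45 at the 10th percentile to 2.35 at the 90th. In the Cre section the median was 3.03 and these percentiles 0.26 and 5.91. Suprabasal UMIs were found in 161 of all 191 Cre surface spots, and a spot without any takes a ratio set by the 0.5 added. The distributions overlap, and spots of 1 section are not replicates of a genotype.

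The ratio also varied along the surface. Divided into 4 stretches of equal length from the left end, the control surface had ratios of 1.01, 0.693, 2.44 and 0.937, and the Cre surface 4.96, 2.24, 4.18 and 8.04. The highest stretch of the control section thus lay above the lowest of the Cre section. Stretches of the same number are not matched places of the animals. In the third stretch of the control section, Krt10 was at 8888 CPM against 20632 to 34560 in the other stretches, and Krt14 at 38887 against 27680 to 35761. The suprabasal sum by stretch lay between 17711 and 52633 in the control section and between 3994 and 9707 in the Cre section. The basal sum lay between 32182 and 43234 and between 21728 and 33636, and overlapped. Stretches of 1 section are not replicates of a genotype, and the share of all genes with separate ranges was not counted.

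**Figure D2:**
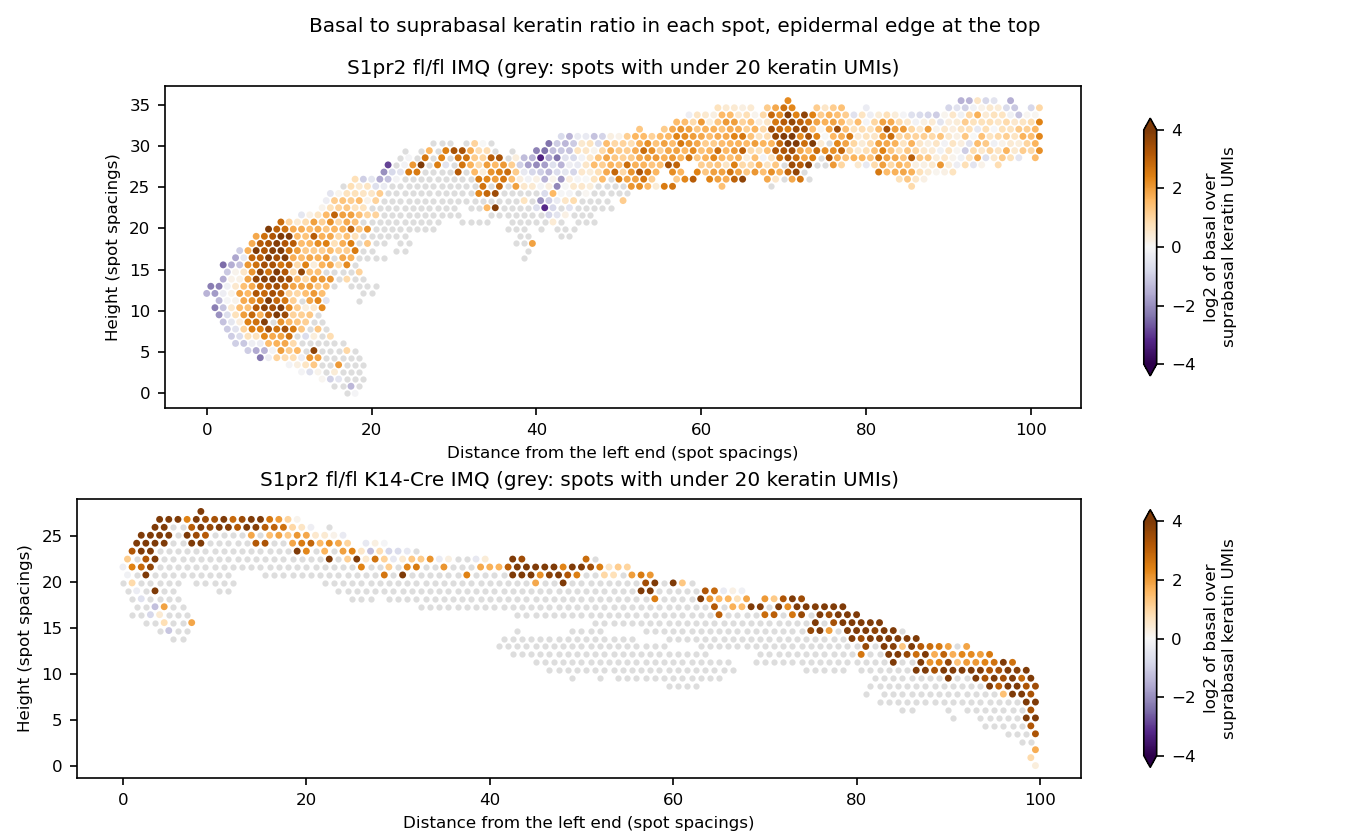
Position of every spot of the 2 connected sections (control S1pr2 fl/fl and Cre S1pr2 fl/fl K14-Cre) in spot spacings (x axis, distance from the left end; y axis, height in the image, epidermal edge at the top), coloured by the log2 ratio of basal to suprabasal keratin UMIs, with grey for spots under 20 keratin UMIs. Purple spots, with more suprabasal UMIs, follow the outer edge of the control section and its curled left end. Coloured spots fill most of the depth of that section but only a band along the edge of the Cre section. The cut of 20 UMIs is the same in both sections, although the median spot held 3835 UMIs in the control section and 2342.5 in the Cre section.

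Below the surface the ratio was first higher with depth in both sections. In the control section it went from 0.889 at step 0 through 1.18, 1.80 and 2.18 to 2.36 at step 4. In the Cre section it went from 4.94 at step 0 through 5.11 and 8.22 to 9.94 at step 3. At steps 3 and 4 the dermal markers were at 13964 and 20593 CPM in the control section and at 26564 and 31038 in the Cre section. The cause of the rise in the ratio was not tested. In the deep spots the ratio was 1.58 in the control section (1.55 to 1.62) and 2.62 in the Cre section (2.40 to 2.86), against 2.00 and 8.54 in the middle. Without the leftmost stretch, where the control section is curled and part of its outer edge counts as deep, the deep ratios were 2.16 and 3.34. The middle ratios include that stretch, so that these deep ratios cannot be set against them. The stretches from the left had deep ratios of 1.24, 1.46, 3.68 and 1.89 in the control section. Those of the Cre section were 1.83, 2.00, 2.69 and 5.45, so that the ranges overlapped. The difference between the sections was smaller in deeper spots, from 4.62-fold at the surface and 4.27-fold in the middle to 1.65-fold in deep spots (1.51 to 1.81).

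**Figure D3:**
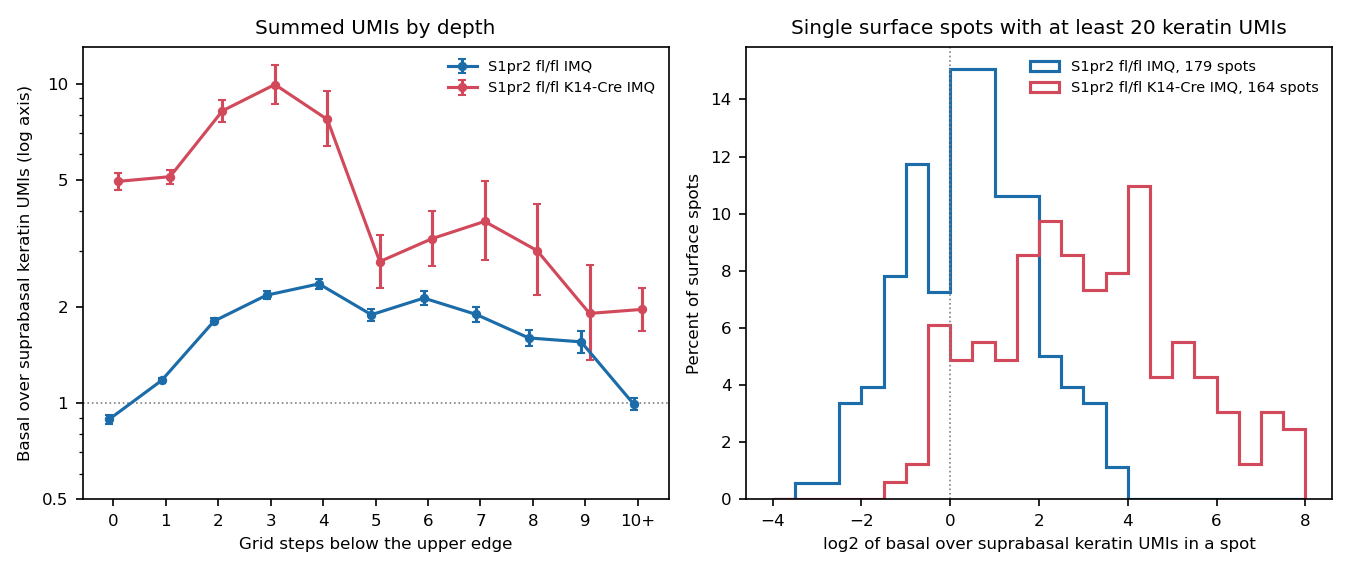
Left, ratio of summed basal to suprabasal keratin UMIs (y axis, log scale) against grid steps below the upper edge (x axis) with 95% counting intervals, and right, percent of surface spots (y axis) by the log2 ratio of the single spot (x axis), each in 1 section per genotype (control S1pr2 fl/fl and Cre S1pr2 fl/fl K14-Cre). The Cre section lies above the control section at each step, at 5.04 against 1.09 over the surface steps. At step 9 it is 1.23-fold above, with an interval that includes equality (0.875 to 1.72). The histograms overlap between −1.25 and 3.98 on the log2 scale.

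The partners of a filament pair followed each other unequally. Krt1 UMIs per Krt10 UMI were 0.595 at the surface, 0.615 in the middle and 0.591 in the deep spots of the control section, and 0.645, 0.895 and 0.656 in the Cre section. Krt5 per Krt14 was lowest at the outermost spots, 0.0811 in the control section and 0.153 in the Cre section, and reached 0.259 and 0.327 at step 3. UMIs counted as Krt14 thus extended farther outward than those of Krt5 relative to their levels below. The stress keratins, which could share probe matches with Krt14, were also highest at step 0, at 58185 and 26976 CPM. Their part in the Krt14 counts was not tested.

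The profiles over depth differed between most of the keratins. Krt1 and Krt10 were highest at step 0 in both sections, at 14095 and 23835 CPM in the control section and at 2422 and 4371 in the Cre section, and stood at 2640.3 and 4093 and at 112 and 213 at step 4. Krt14 was highest at step 1 in the control section (32837) and at step 0 in the Cre section (29120), and at step 4 was at 12258 and 2001. Krt5 peaked 1 step deeper than Krt14 in the control section, at step 2 (5457). In the Cre section it was at 4707 at step 1 (4472 to 4952) and 4460 at step 0 (4156 to 4780), with overlapping intervals. For Krt1 in the Cre section steps 0 and 1 overlapped as well, at 2422 (2200 to 2661) and 2313 (2148 to 2486). Krt15 differed from the other keratins in its place. In the control section it was highest at step 4 (670), with an interval that overlapped that of step 3 (606). In the Cre section it peaked at step 3 (723).

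**Figure D4:**
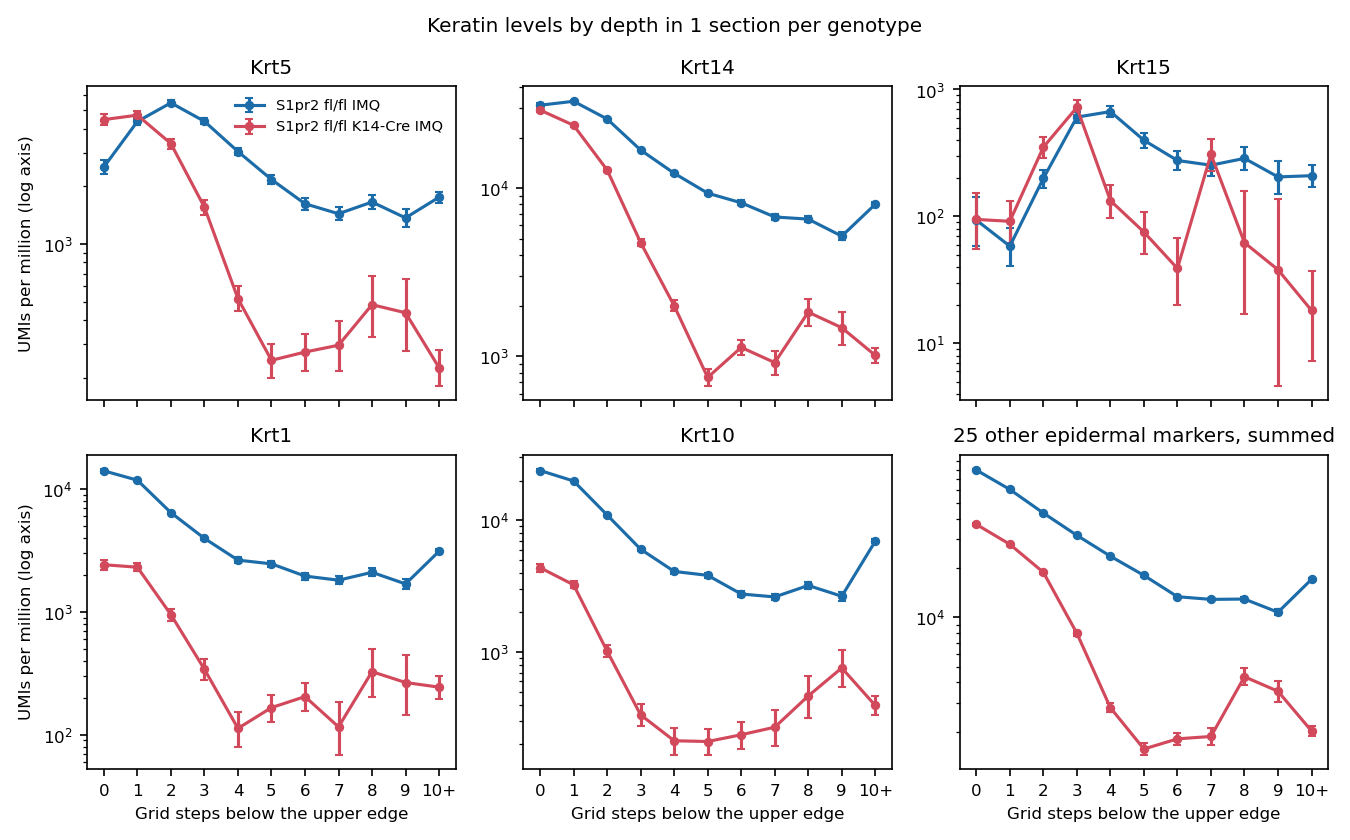
CPM (y axes, log scale) of 5 keratins and of 25 other epidermal markers summed, against grid steps below the upper edge (x axes), with 95% counting intervals in 1 section per genotype (control S1pr2 fl/fl and Cre S1pr2 fl/fl K14-Cre). The sections start close together for Krt14 and Krt15 and far apart for Krt1 and Krt10. Krt5 starts at 2523 in the control section and at 4460 in the Cre section. From step 4 on every keratin except Krt15 at step 7 is lower in the Cre section. At step 7 a single Cre spot held 42 of the 48 Krt15 UMIs. Krt14 is at 12258 and 2001 at step 4.

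Keratin transcripts were found far below the upper edge in the control section and much less so in the Cre section. Part of the curled outer edge of the control section counts as deep here. The median deep spot held 3538.5 UMIs in the control section and 2367 in the Cre section. Krt14 was detected in 630 of 650 deep spots of the control section (96.9%) and in 307 of 443 of the Cre section (69.3%), at 7634 (7525 to 7743) and 1012 (959 to 1067) CPM. The deep level was 23.6% of the surface level in the control section (23.1 to 24.0) and 3.95% in the Cre section (3.73 to 4.18). Krt5 was at 44.0% and 5.86% of its surface level, Krt1 at 18.2% and 8.62%, and Krt10 at 18.3% and 8.47%. The deep level of Krt10 in the control section depends in part on the curled left end, at 3813 CPM with the leftmost stretch and 2117 without it. That of Krt15 in the Cre section was 75.4 with its leftmost stretch and 16.1 without it. In the control section the basal sum thus kept more of its surface level in deep spots than the suprabasal sum (26.5% against 18.3%), and in the Cre section less (4.48% against 8.62%).

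Taken over all deep spots, the 5 measured keratins were at least 2-fold lower in the Cre section, where 12.9% of 7314 genes were at least 2-fold lower and 3.53% at least 2-fold higher, with a median log2 ratio of −0.23. Krt15 is the exception along the section. It was at 285 CPM in the leftmost stretch of the control section (254 to 319) and 358 in that of the Cre section (286 to 443), with overlapping intervals. That Cre stretch held 82.4% of the deep Krt15 UMIs of its section, and 1 spot held 42 of its 84 UMIs. Krt14 was 7.54-fold higher in the control section (7.14 to 7.98), Krt5 6.31-fold (5.67 to 7.04), Krt1 11.1-fold (9.86 to 12.6) and Krt10 12.3-fold (11.2 to 13.6). Without the leftmost stretches Krt14 was 7.80-fold, Krt5 6.99-fold, Krt1 10.8-fold and Krt10 13.8-fold higher. In the same spots the 7 muscle markers were at 99905 CPM in the Cre section and 32359 in the control section (6 of 7 at least 2-fold higher), while the 9 dermal markers were at 22644 and 21054. The 4 blood markers in the files were at 2930 and 351 CPM there (4 of 4 lower) and the immune markers at 7541 and 2053 (3 of 7 lower). No muscle, dermal or immune marker was at 0 UMIs in deep spots, and the part of these differences in the keratin ratios was not tested. The other epidermal markers were 7.35-fold higher in the control section as well, with 21 of 23 genes at least 2-fold lower in the Cre section.

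Against depth within each section, Krt5, Krt14, Krt1 and Krt10 were at least 2-fold higher at the surface than in deep spots in both sections. In the control section 9.44% of 6492 genes were so, and in the Cre section 20.2% of 3622. The 7 keratins in deep spots were at 22.5% and 5.16% of their surface level and the other epidermal markers at 22.4% and 6.39%. In the opposite direction, the lists of deeper tissue at the surface of the control section were at 1.80% (muscle), 2.91% (fat), 11.2% (dermis) and 1.87% (blood) of their deep level. At the surface of the Cre section they were at 2.04%, 8.26%, 28.2% and 40.7%, so that 3 of these 4 lists lay above the keratins there.

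**Figure D5:**
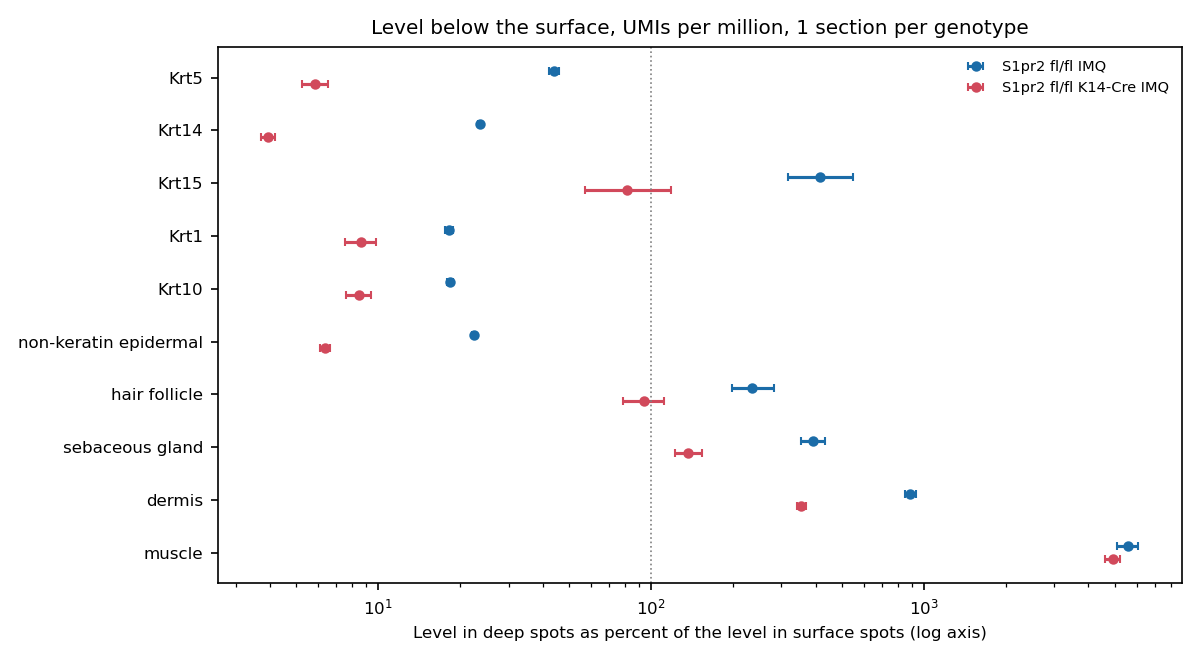
Level in deep spots as percent of the level in surface spots (x axis, log scale) for 5 keratins and 5 marker lists (y axis), with 95% counting intervals in 1 section per genotype (control S1pr2 fl/fl and Cre S1pr2 fl/fl K14-Cre) and a dotted line at equality. Krt14 lies at 23.6% in the control section and 3.95% in the Cre section, Krt15 at 414% (about equal in another depth measure) and 81.4%, and the muscle list lies far to the right in both sections.

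Counted as UMIs, 23.1% of all keratin UMIs of the control section (22.9 to 23.3) and 8.36% of those of the Cre section (8.05 to 8.68) lay in deep spots, which held 46.8% and 47.5% of all UMIs. The share depends on how depth is counted. The left end of the control section is curled, so that part of its outer edge faces sideways and counts as deep, and the leftmost stretch held 49.3% of the deep basal and 62.8% of the deep suprabasal UMIs of that section, beside 42.8% of all its deep UMIs and 275 of its 650 deep spots. Without that stretch the deep share was 16.4% in the control section and 7.36% in the Cre section. When depth was counted from the nearest spot rich in other epidermal markers, it was 13.4% and 2.62%.

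Deep suprabasal transcripts were more concentrated than basal ones in the control section. There 27 of 650 deep spots held 50% of the suprabasal UMIs, and 93 held 50% of the basal UMIs. A single deep spot had 939 Krt10 UMIs. The ratio of basal to suprabasal UMIs at step 10 and deeper was 0.993, against 1.55 at step 9. It rests in part on few spots, since 1 spot there held 1292 of the 4808 suprabasal UMIs. The median over these spots was 10 basal and 5 suprabasal UMIs. In the Cre section 41 and 37 of 443 deep spots held these shares, and no deep spot had more than 25 Krt10 UMIs. Krt14 in deep spots lay between 6698 and 8718 CPM in the control stretches and between 720 and 1663 in the Cre stretches. Here too the share of all genes with separate ranges was not counted. Krt10 nearly met, at 1075 in the lowest control stretch (988 to 1168) and 1049 in the highest Cre stretch (922 to 1189). Krt15 overlapped, at 220 to 318 and 8.44 to 358. The highest value, in the leftmost Cre stretch, had an interval (286 to 443) that overlapped that of the rightmost control stretch (277 to 363).

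Spots were also grouped by the marker list that led in them. In the 276 muscle-led spots of the control section, Krt14 was at 5704 CPM and Krt10 at 1542, and in the 268 muscle-led spots of the Cre section at 710 and 147. Fat-led spots had Krt14 at 7855 and 1371, and dermis-led spots at 10220.1 and 1633. The 67 and 38 spots led by hair follicle markers had Krt14 at 13083 and 7479. Muscle and fat cells are not known to express epidermal keratins, and the origin of these UMIs was not tested.

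Krt15 was highest in the follicle-led spots, at 1157 CPM in the control section and 758 in the Cre section, next in sebaceous-led spots (507 and 608), and at 90.1 and 118 in epidermis-led spots. In deep spots it was at 279 and 75.4, which is 414% (316 to 551) and 81.4% (57.0 to 118) of the surface level. The first of these rests on how depth is counted, since the log2 ratio of deep over surface, 2.05, was −0.010 with depth as the rank of a spot in its array column. Of its 1667 UMIs in the control section 3.48% lay at the surface, 55.0% in the middle and 41.5% deep, and of its 543 UMIs in the Cre section 8.47%, 72.7% and 18.8%. In the deep spots of the Cre section, 2 spots held 50% of its UMIs. The 17 hair follicle markers in deep spots summed to 404 and 345 CPM, 1.17-fold higher in the control section (1.05 to 1.31). The sum hides differences between genes. Of 4 follicle markers with enough UMIs, 3 were at least 2-fold lower in the Cre section, with a median log2 ratio of −1.46. The sebaceous markers in deep spots summed to 1871 and 1133 CPM, with 4 of 6 at least 2-fold lower. Over all 7314 genes 12.9% were so.

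Likeness across single spots is given as Pearson's r of log-normalized counts over 1090 spots of the control section and 947 of the Cre section with at least 500 UMIs. These spots share a library and differ in depth of sequencing, so that r is a description. Krt1 with Krt10 had r of 0.68 and 0.50, and Krt5 with Krt14 had 0.48 and 0.72. In the control section Krt14 was closer to Krt1 (0.59) and Krt16 (0.70) than to Krt5, and about as close to Krt10 (0.49) as to Krt5. In the Cre section it had 0.46 with Krt1, 0.53 with Krt16 and 0.41 with Krt10. Krt15 with Krt14 had −0.06 and 0.19. Among 5673 genes with at least 100 UMIs in each section, ranked by the lower r of the 2 sections, Krt14 was most like Krtdap (0.75 and 0.72), the fatty acid binding protein Fabp5 (0.70 and 0.72) and Lgals7 (0.66 and 0.72). Krt5 was most like Lgals7 (0.51 and 0.71), Krt14 and the desmosome protein Dsp (0.45 and 0.62).

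Krt10 was most like the calmodulin-related Calm4 (0.57 and 0.54), Krt1 and Lor (0.62 and 0.49), and Krt1 most like the protease inhibitor Stfa3 (0.59 and 0.50), Krt10 and Krt6b (0.54 and 0.47). Krt15 had no close match, the nearest being Col17a1 (0.23 and 0.29), Fxyd3 (0.22 and 0.25) and Far2, a sebaceous gland marker (0.23 and 0.22). Krt2 and Krt77 had fewer than 100 UMIs and were not ranked.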

How the data were processed

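Skin was sampled as 1 section (10 μm) per genotype on capture areas of 11 mm sides. The deposited values are raw counts of UMIs for each gene in each spot over tissue, written by Space Ranger 3.0.0 per the file headers. The submitters' processing notes name build mm10, and the probe set is not given in the sources used here. From these counts, UMIs were summed over spots and divided by all UMIs of the same spots. Exact Poisson limits were used for levels, conditional binomial limits for ratios of UMIs and Clopper-Pearson limits for shares. With 1 library per genotype no test was run. Stray spots outside connected groups of at least 20 spots were left out (79 and 11). Genes needed at least 100 UMIs over the spots compared. The scripts recovered known ratios in simulated Poisson counts, which hold no clustering of spots and no difference between animals. This checks the code and not the reliability of the ratios given here. The members, the marker lists and the rule for named genes (all members and the 3 genes most like each, list genes by UMIs) were chosen with earlier results of these data known. Python 3.11.15, R 4.3.3 and edgeR 4.0.16 (TMM factor) were used. Alternatives covered the choice of spots, the depth measure, the scaling, thinning to 1000 UMIs and the receptor background.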

Additional observations from a re-analysis of the deposited data

How the results depend on the processing

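No paired analysis was possible because each genotype had 1 section, and leaving out a replicate was impossible for the same reason. Over sums of keratins, 33 of 86 recomputed values moved by less than their counting interval, 51 by more and 2 changed sign, and over single keratins 182, 136 and 5 of 323. The causes were not tested.

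At the surface, the log2 ratio of Cre over control for the basal sum (−0.26) was −0.61 with depth as the rank of a spot in its array column, −0.56 with steps from spots at 2 times the section's share of other epidermal markers, −0.29 without the leftmost stretch, −0.37 after thinning, −1.06 with the TMM factor, −0.44 as a mean over spots and −0.0026 at step 0 alone, and reversed to 0.81 relative to the other epidermal markers. For the suprabasal sum (−2.47) the rank gave −2.64, the marker-based steps −3.00, the TMM factor −3.27 and the other epidermal markers −1.40. Krt5 (0.25) reversed to −0.36 with the rank, −0.21 with the marker-based steps and −0.55 with the TMM factor, and Krt14 (−0.34) to 0.73 relative to the other epidermal markers.

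The log2 ratio of basal to suprabasal UMIs at the control surface (0.13) was 0.25 with all tissue spots, 0.50 with the rank, 0.048 with the marker-based steps and 0.17 without the leftmost stretch, and reversed to −0.17 at step 0 alone. As a median over spots with at least 20, 10 or 50 keratin UMIs it was 0.50, 0.53 and 0.48. At the Cre surface (2.33) it was 2.41, 2.53 and 2.49 with all tissue spots, the rank and the marker-based steps, 2.17 after thinning, and 3.03, 2.97 and 2.97 as these medians.

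The deep share of keratin UMIs in the control section (23.1%) was 24.6% with all tissue spots, 21.5% with the rank, 13.4% with the marker-based steps, 16.4% without the leftmost stretch, 24.5% after thinning, and 30.9% or 17.5% with deep from step 4 or 6. In the Cre section (8.36%) it was 6.41% with the rank, 2.62% with the marker-based steps, 7.36% without the leftmost stretch, 10.4% after thinning, and 11.7% or 6.51% from step 4 or 6. The log2 ratio of the deep over the surface level in the control section (−2.15) was −2.09 with all tissue spots, −1.75 with the rank, −2.38 with the marker-based steps, −2.43 without the leftmost stretch, −2.32 after thinning, and −2.03 or −2.21 from step 4 or 6, and Krt15 alone (2.05) reversed to −0.010 with the rank. In the Cre section (−4.28) it was −3.81, −4.44, −4.61 and −3.84 with the rank, the marker-based steps, without the leftmost stretch and after thinning, and −4.11 or −4.15 from step 4 or 6. Of the 15 genes named as most like a keratin, 10 were also named by Spearman's rho and 14 with at least 300 UMIs per gene.

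The marker-based steps were first planned from spots at 5 times the marker share, but 1 control and 7 Cre spots reached it, and the 2-fold version (133 and 188 spots) was chosen after seeing the data. Depth limits Krt2, Krt77 and surface Krt15, and thinning to 1000 UMIs left out 230 and 100 spots.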
